A study of Mus musculus with 13 samples.

Results

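The dependence of the miR-181a2b2 genotype difference on diet was examined in mouse skeletal muscle with RNA sequencing counts from all 13 of the series' 13 samples. Flox animals, titled WT by the submitters, carried 2 floxed copies of the miR-181a2b2 locus (flox/flox), and KO animals were systemic knockouts of it. Each genotype was fed chow or a diet labelled HFSC, which the labels do not spell out, giving 3 flox and 3 KO samples on chow and 4 flox and 3 KO samples on HFSC. All muscle samples therefore came from animals that carry a floxed or a deleted locus, and no sample is labelled as carrying an unmodified one. The study's design text also names hindlimb ischemia, but no sample is labelled with a limb or a time after ischemia, so the ischemic state of each group is unknown here. The labels give no age, no strain and no statement that each sample was a separate animal, so the p-values measure only how far these samples spread, part of which may be technical.

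MicroRNAs are short RNAs that guide silencing complexes to matching sites, mostly in the 3′ untranslated regions (3′ UTRs) of messenger RNAs, and lower the output of those messages. The miR-181 family is known for roles in blood cell development and in the inflammatory response of endothelial cells and macrophages. CXCR4, named with miR-181a/b in the study's title, is the receptor for the chemokine CXCL12 and guides blood-forming cells, leukocytes and endothelial cells.

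The mature products of the deleted locus are shown because their seeds define the target sites examined at the end. Bases 2 to 8, the seed that pairs with targets, are in capitals, and the sequences are from RefSeq on GRCm38.p6.
mmu-miR-181a-5p: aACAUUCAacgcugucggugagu
mmu-miR-181b-5p: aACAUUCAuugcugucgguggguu
mmu-miR-181a-2-3p: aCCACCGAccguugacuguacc
mmu-miR-181b-2-3p: cUCACUGAucaaugaaugcaaa
The 5p arms of both miRNAs share a seed, and the 3p arms have different ones. They lie on chromosome 2, plus strand, with miR-181a-5p at 38852741 to 38852763 and miR-181b-5p at 38853845 to 38853868.

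The libraries held 20830943 to 45710227 counts, with a median of 29011060. Mir181a-2 had 2, 1 and 0 reads in chow flox and 1, 0, 0 and 0 in HFSC flox, and 0 in all 6 KO libraries, while Mir181b-2 had no read in any library. None exceeds 3 counts, the limit that a count of 0 allows, so the locus gives no check of the genotypes. The extraction protocol names white adipose tissue, but the libraries carried muscle transcripts at high levels. Myh4, the myosin of fast glycolytic fibres, ran from 25232 to 84328 CPM (counts scaled to a common library total), and Adipoq, which encodes the fat cell hormone adiponectin, from 7.11 to 30.7 CPM.

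A pair of chow flox libraries stood apart from the third of their group. On log2 CPM, the first principal component took up 50.7% of the variance. Chow flox replicates 2 and 3 lay on it at -32.6 and -67.8, chow flox replicate 4 at 51.3, the chow KO libraries from 51.8 to 88.6, and the HFSC libraries from -32.4 to -13.3. Chow flox replicate 4 was therefore next to the KO libraries of its diet and not next to the other flox libraries. Chow flox replicate 3 carried neutrophil and cytokine transcripts. S100a9, a neutrophil protein gene, had 15.5 CPM there and at most 0.963 CPM in any other library, and the neutrophil gene S100a8 had 442 reads there and at most 13 elsewhere. Il1b, a cytokine of activated myeloid cells, had 411 reads in chow flox replicate 3 and at most 25 in the others. Counts and medians of most gene lists below are therefore also given without chow flox replicate 4, and for some lists without another library. With all 13 libraries the members are counted at an unadjusted p under 0.05. Without chow flox replicate 4 a member that passed had an edgeR adjusted p under 0.05, so these counts are on different thresholds. Over all tested genes, 18.2% were positive and 11% negative by the first threshold, and 18.8% and 16.1% by the second. A list count near these shares is no result about that list. Chow flox replicate 4 was singled out by its place among these same libraries, so passing without it is no separate support.

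The interaction was defined per gene as the log2 difference of KO from flox on HFSC minus the same difference on chow. A positive value means that KO stood higher relative to flox on HFSC than on chow. With all 13 libraries, 0 of 16496 tested genes (0%) passed an adjusted p of 0.05 in edgeR's quasi-likelihood test with Benjamini-Hochberg adjustment. The smallest adjusted p was 0.0625, shared by 230 genes, and 2007 genes lay under 0.1. At an unadjusted p under 0.05 there were 4811 genes, or 29.2% of those tested, of which 3001 were positive (18.2%) and 1810 negative (11%). DESeq2 called 2025 of 14245 genes, with 1372 positive (9.63%) and 653 negative (4.58%), and limma voom with sample quality weights called 7098.

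In edgeR with the low-count filter, the count of 0 changed most with a single library. The choice of filter and test changed it too, since edgeR with no low-count filter called 161 genes with all 13 libraries. Without chow flox replicate 4, edgeR called 5928 of 16972 genes, with 3191 positive (18.8%) and 2737 negative (16.1%). Leaving out HFSC flox replicate 4 gave 2 calls, and leaving out any of the other 11 libraries gave 0. The weighted voom fit gave chow flox replicate 4 a weight of 0.172, the lowest of the 13. It gave chow flox replicate 2 the highest weight, 6.26, and replicate 3 a weight of 0.457. The chow flox level in that fit therefore rested mostly on replicate 2. No label sets chow flox replicate 4 apart, and it remained in the values below unless stated. Scaling by library totals without trimmed mean of M values (TMM) factors shifted the median interaction of all genes by 0.33 and raised the positive share of the genes under an unadjusted p of 0.05 from 62.4% to 85.2%, again with 0 passing.

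The sets at an unadjusted p under 0.05, chosen after the data were seen, are used below only to describe which groups differed. Most of these genes turned on the chow KO group. For each gene the group whose mean log2 CPM lay farthest from the mean of the other 3 groups was found. Among the 3001 positive genes, chow KO was the farthest group and the lowest in 77.1%, against 28.1% of all tested genes, and HFSC KO was the highest in 12.1%, against 9.74%. Among the 1810 negative genes, chow KO was the highest in 67.8%, against 24.3% of all tested genes, and HFSC KO the lowest in 18.6%, against 9.43%. The negative shares depended on scaling: with library totals chow KO was the highest in 50.1% of 795 negative genes, against 8.44% of all tested, and HFSC KO the lowest in 39.4%, against 11.2%. The median KO minus flox difference of the positive genes was -1.004 on chow and 0.17 on HFSC, and that of the negative genes 0.47 and -0.27 (log2). The differences on the 2 diets had opposite signs in 71.5% of positive and 95.7% of negative genes, and in 54.7% of all tested genes. The interaction is itself built from these differences, so the shares describe the sets and are no separate evidence.

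These genes were chosen on the same libraries, so the placement of chow flox replicate 4 among them is given beside that over all tested genes. Replicates 2 and 3 of chow flox lay above all 3 chow KO libraries in 96.1% and 95.1% of the positive genes, and replicate 4 in 53.4%, against 39.7%, 40.6% and 24.0% of all tested genes. For the negative genes, replicates 2 and 3 lay below all chow KO libraries in 93.5% and 95.5%, and replicate 4 in 48.6%, against 36.9%, 41.3% and 20.6% of all tested genes.

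**Figure D1:**
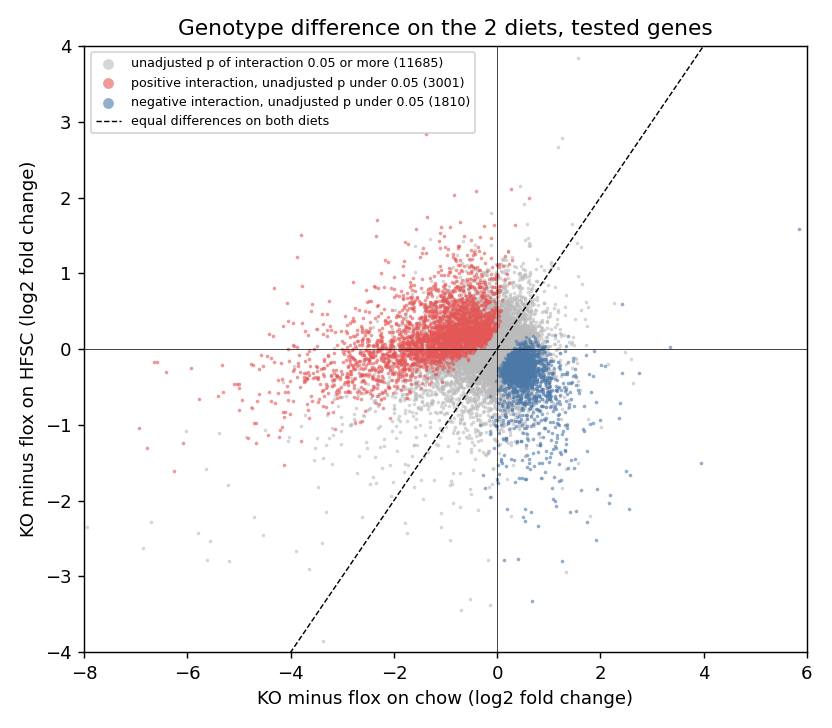
Log2 difference of KO from flox on chow (horizontal axis) and on HFSC (vertical axis) for each tested gene, with genes under an unadjusted interaction p of 0.05 coloured by sign and the dashed line marking equal differences. The 3001 positive genes lie mostly left of zero on chow, with a median of -1.004, and close to zero on HFSC, with a median of 0.17, and 4 genes lie outside the axes.

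Some genes crossed, with KO and flox libraries that did not overlap on either diet and differed in opposite directions. KO was lower on chow and higher on HFSC in 155 of the 16496 tested genes (0.94%), and higher on chow and lower on HFSC in 125 (0.758%). By this definition chow flox replicate 4 lay on the flox side with replicates 2 and 3, by however small a margin, so its place there is no result. The crossing genes include 4 of the 5 positive and all 5 negative genes with the smallest interaction p.

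The positive genes with the smallest p included vascular and mesenchymal ones. Sox17, a transcription factor of arterial endothelium (chromosome 1, 4490931 to 4497354), had 16.9, 16.2 and 15.9 CPM in chow flox and 9.31, 11.99 and 9.26 CPM in chow KO. On HFSC it had 9.83, 13.4, 12.3 and 15.2 CPM in flox and 22.7, 22.1 and 27.1 CPM in KO. KO libraries were all below flox on chow and all above flox on HFSC. The log2 difference was -0.68 on chow and 0.92 on HFSC, and the interaction 1.60 ± 0.21 (SE), which did not pass (edgeR adjusted p = 0.0625). It was 1.61 without chow flox replicate 4 and then passed (edgeR adjusted p = 4.9e-04), and 1.58 in DESeq2 (adjusted p = 4.5e-07).

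Hspa12b, a member of the heat shock protein 70 superfamily known from endothelial cells (chromosome 2, 131127280 to 131146321), had 24.2, 23.3 and 19.7 CPM in chow flox and 18.5, 19.9 and 18.7 CPM in chow KO. On HFSC the flox libraries had 23.2, 23.0, 25.1 and 23.8 CPM and the KO libraries 35.1, 39.9 and 40.8 CPM. The HFSC KO libraries were the highest of all 13, and the chow groups overlapped. Its interaction of 0.94 ± 0.14 came mainly from HFSC, where the log2 difference was 0.70 against -0.24 on chow (edgeR adjusted p = 0.0625).

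Prkd1, the serine/threonine kinase PKD1 (chromosome 12, 50341231 to 50649098), had 4.45, 5.45 and 5.68 CPM in chow flox and 2.73, 2.96 and 2.33 CPM in chow KO. It had 4.09, 4.20, 4.94 and 3.99 CPM in HFSC flox and 5.66, 6.75 and 7.36 CPM in HFSC KO. The chow KO libraries were the lowest of all 13. The interaction was 1.57 ± 0.23 (edgeR adjusted p = 0.0625).

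Scara5, a scavenger receptor that binds ferritin and a known marker of fibroblastic progenitors (chromosome 14, 65666403 to 65764826), had 20.8, 24.0 and 16.4 CPM in chow flox and 10.7, 12.03 and 8.70 CPM in chow KO. It had 24.0, 25.2, 28.1 and 24.0 CPM in HFSC flox and 39.9, 29.2 and 39.9 CPM in HFSC KO. HFSC KO was the highest group and chow KO the lowest, and the interaction was 1.48 ± 0.23 (edgeR adjusted p = 0.0625). Sult5a1, a cytosolic sulfotransferase (chromosome 8, 123140192 to 123158315), had 5.30, 5.53 and 5.11 CPM in chow flox and 2.76, 2.12 and 2.15 CPM in chow KO. On HFSC it had 2.701, 3.70, 5.03 and 3.80 CPM in flox and 5.98, 5.57 and 6.14 CPM in KO. The HFSC flox libraries spread more than the others, and the interaction was 1.80 ± 0.28 (edgeR adjusted p = 0.0625).

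The negative genes with the smallest p were higher in KO on chow and lower in KO on HFSC. Zfp454, a zinc finger protein gene (chromosome 11, 50872720 to 50887651), had 1.41, 0.988 and 1.52 CPM in chow flox and 2.32, 2.52 and 2.76 CPM in chow KO. On HFSC the flox libraries had 2.13, 1.98, 1.70 and 2.03 CPM and the KO libraries 1.25, 1.08 and 0.786 CPM. The groups were apart on both diets at a low level, and the interaction was -1.86 ± 0.33 (edgeR adjusted p = 0.0625). Vwa3b, which encodes a von Willebrand factor A domain protein (chromosome 1, 37026596 to 37187613), had 2.05, 1.66 and 2.86 CPM in chow flox and 3.75, 4.20 and 4.01 CPM in chow KO. It had 2.67, 3.34, 3.16 and 3.82 CPM in HFSC flox and 2.04, 1.97 and 1.79 CPM in HFSC KO. Its interaction was -1.62 ± 0.30 (edgeR adjusted p = 0.0625), and its groups were apart on both diets.

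Srebf1 encodes SREBP-1, which drives transcription of fatty acid synthesis genes (chromosome 11, 60199089 to 60222581). It had 42.8, 40.3 and 50.04 CPM in chow flox and 78.4, 61.1 and 75.7 CPM in chow KO. On HFSC it had 66.4, 77.3, 45.2 and 52.0 CPM in flox and 42.6, 38.0 and 33.9 CPM in KO. HFSC KO thus lay near chow flox and HFSC flox overlapped chow KO. The log2 difference was 0.69 on chow and -0.66 on HFSC, and the interaction -1.35 ± 0.25 (edgeR adjusted p = 0.0625).

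Fgf2, basic fibroblast growth factor, which stimulates endothelial and muscle precursor cells (chromosome 3, 37348346 to 37410108), had 12.3, 9.56 and 13.5 CPM in chow flox and 17.5, 15.8 and 18.1 CPM in chow KO. It had 8.54, 9.68, 7.66 and 7.39 CPM in HFSC flox and 6.12, 5.87 and 5.72 CPM in HFSC KO. Fgf2 was lower on HFSC than on chow within KO (log2 -1.54, edgeR adjusted p = 4.5e-04), and the interaction was -1.03 ± 0.20 (edgeR adjusted p = 0.0625). Lppos, a long intergenic noncoding RNA (chromosome 16, 24391612 to 24393588), had 4.60, 4.54 and 6.63 CPM in chow flox and 8.02, 8.55 and 9.13 CPM in chow KO. It had 6.25, 5.12, 6.21 and 5.76 CPM in HFSC flox and 4.01, 4.59 and 4.11 CPM in HFSC KO. The highest group was chow KO and the lowest HFSC KO, and the interaction was -1.17 ± 0.23 (edgeR adjusted p = 0.0625).

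All 10 of these genes kept their direction in every alternative fit, including scaling by library totals. Each passed without chow flox replicate 4, with edgeR adjusted p from 2.9e-04 for Hspa12b to 0.0016 for Srebf1. Both these genes and the library left out were chosen on the same data, so this passing is no separate support.

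**Figure D2:**
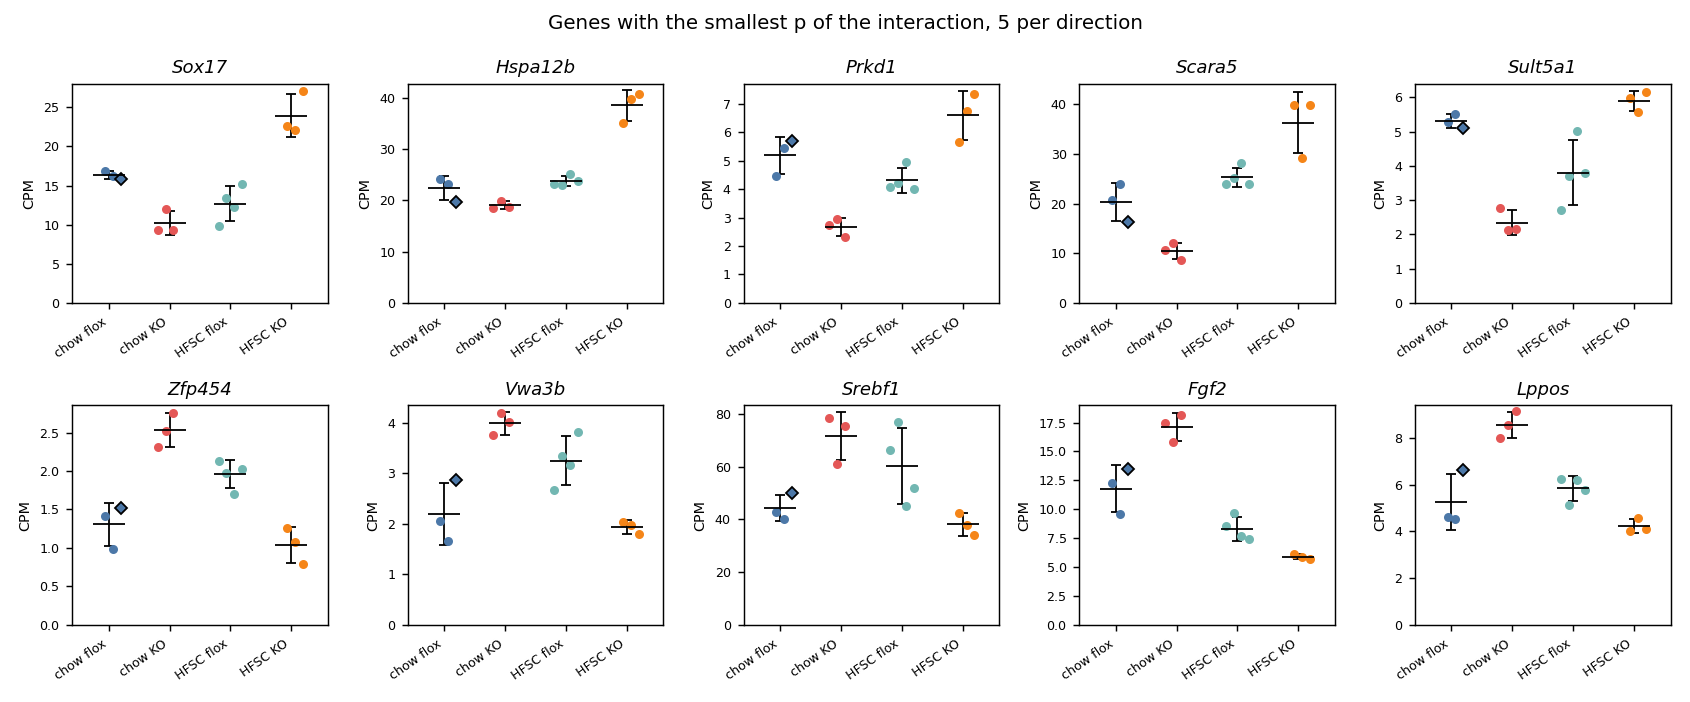
CPM of the 5 positive and 5 negative genes with the smallest interaction p in each library (points), with group mean and SD (bars) and the diamond marking chow flox replicate 4. Sox17 lies at 9.26 to 11.99 CPM in chow KO and 22.1 to 27.1 CPM in HFSC KO, and Fgf2 at 15.8 to 18.1 and 5.72 to 6.12 CPM.

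Some further crossing genes were picked out after their values were seen. Sema3g, an endothelial semaphorin, had 23.5, 26.6 and 19.1 CPM in chow flox, 15.5, 14.2 and 13.1 CPM in chow KO, 14.8 to 17.3 CPM in HFSC flox and 20.1 to 24.7 CPM in HFSC KO. Hey1, a target of Notch signalling in arteries, had 4.96 to 6.62 CPM in chow flox, 3.36 to 3.79 CPM in chow KO, 3.31 to 5.11 CPM in HFSC flox and 6.34 to 11.5 CPM in HFSC KO. Cyp1b1, a cytochrome P450 enzyme, had 1.68 to 5.61, 0.689 to 1.16, 5.34 to 7.94 and 12.7 to 16.5 CPM in the same order. In these 3 genes KO was below flox on chow and above flox on HFSC in every library, with interactions of 1.17 ± 0.18 for Sema3g, 1.75 ± 0.32 for Hey1 and 2.95 ± 0.48 for Cyp1b1 (edgeR adjusted p = 0.0625 for each). Cpeb3, an RNA-binding translational regulator, crossed the other way, with 56.7 to 102 CPM in chow flox, 113 to 124 CPM in chow KO, 69.1 to 73.5 CPM in HFSC flox and 49.2 to 58.1 CPM in HFSC KO. Its interaction was -1.03 ± 0.24 (edgeR adjusted p = 0.0625).

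Cxcr4 crossed as well, at a low level. It had 8.34, 19.6 and 2.93 CPM in chow flox and 2.90, 2.84 and 2.80 CPM in chow KO. On HFSC it had 4.86, 3.95, 6.81 and 4.92 CPM in flox and 7.12, 7.83 and 11.4 CPM in KO. The separation on chow was narrow, since chow flox replicate 4 exceeded the highest chow KO library by 2.93 against 2.90 CPM, and the highest value was in chow flox replicate 3, the library with neutrophil transcripts. The log2 difference was -1.86 on chow and 0.77 on HFSC, and the interaction 2.63 ± 0.65 did not pass (edgeR adjusted p = 0.0692). It was 3.05 without chow flox replicate 4 (edgeR adjusted p = 5.3e-04) and 1.79 without chow flox replicate 3 (edgeR adjusted p = 0.155). Of the other members of its axis, 3 had interactions smaller than their SE. Cxcl12, the ligand of CXCR4, had an interaction of 0.20 ± 0.38, the decoy receptor gene Ackr3 0.28 ± 0.34, and Mif, a second ligand gene, 0.12 ± 0.16, with edgeR adjusted p of 0.75, 0.601 and 0.621. Cd74, the receptor for MIF and the invariant chain of MHC class II, had 1.995 ± 0.51 (edgeR adjusted p = 0.071) and is described with the MHC class II genes.

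Extracellular matrix genes lay on the positive side. Of 18 tested fibroblast and matrix genes, 17 had a positive interaction at an unadjusted p under 0.05 and 0 a negative one, against 18.2% and 11% of all genes, and 0 passed with adjustment. Their median interaction was 2.05 against 0.04 over all genes. Without chow flox replicate 4, 17 of 18 passed, all positive, with a median of 2.41, and without chow flox replicate 3 the median was 1.63. In bulk muscle, fewer cells of a type and less RNA per cell cannot be told apart.

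Col3a1, the fibrillar collagen III chain, had 1305, 2389 and 392 CPM in chow flox and 142, 113 and 53.7 CPM in chow KO. It had 1422, 1702, 1109 and 1478 CPM in HFSC flox and 973, 1007 and 1211 CPM in HFSC KO. The chow KO libraries lay far below all others, the HFSC groups overlapped, and the interaction was 3.30 ± 0.67 (edgeR adjusted p = 0.0625). Pdgfra, the receptor that marks fibro-adipogenic progenitors, had 36.6, 36.3 and 24.5 CPM in chow flox, 14.5, 14.6 and 11.03 CPM in chow KO, 39.5 to 48.1 CPM in HFSC flox and 39.5 to 54.2 CPM in HFSC KO. The groups were apart on chow only, and the interaction was 1.46 ± 0.24 (edgeR adjusted p = 0.0625). Col6a2, a collagen VI chain, had an interaction of 1.95 ± 0.40, and Postn, the matricellular protein periostin, had the highest of the list at 3.97. Fn1, the fibronectin gene, was the 1 member above the unadjusted threshold, at 1.26.

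Basement membrane genes were also lowest in chow KO by their median level. Of 14 tested genes, 12 were positive and 0 negative at an unadjusted p under 0.05, with a median of 1.28 and 1.55 without chow flox replicate 4, where 11 passed. Col4a1 and Col4a2 encode the paired chains of the main collagen IV network. Col4a1 had 372, 390 and 151 CPM in chow flox and 73.0, 89.9 and 56.7 CPM in chow KO, and 390 to 658 CPM in HFSC flox against 569 to 670 CPM in HFSC KO. Col4a2 had 251, 266 and 115 CPM in chow flox, 60.2, 73.5 and 48.6 CPM in chow KO, 249 to 390 CPM in HFSC flox and 353 to 435 CPM in HFSC KO. For both genes chow flox replicate 4 lay between the other chow flox libraries and chow KO. The interactions were 2.28 ± 0.42 for Col4a1 and 2.05 ± 0.38 for Col4a2 (edgeR adjusted p = 0.0625 for both). Nid1, nidogen 1, which links laminin to collagen IV, had 1.76 ± 0.33, whereas the laminin genes Lama2 and Lamb2 had 0.26 and 0.06.

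Col4a1 and Col4a2 lie head to head on chromosome 8, and their interactions were close in size. The window from 250 bases before to 50 after the start of Col4a2 is shown because it overlaps the same window of Col4a1, which runs on the opposite strand. It is chr8:11312555-11312854, plus strand (RefSeq, GRCm38.p6), and capitals mark the 78 bases shared by both windows.
Col4a2: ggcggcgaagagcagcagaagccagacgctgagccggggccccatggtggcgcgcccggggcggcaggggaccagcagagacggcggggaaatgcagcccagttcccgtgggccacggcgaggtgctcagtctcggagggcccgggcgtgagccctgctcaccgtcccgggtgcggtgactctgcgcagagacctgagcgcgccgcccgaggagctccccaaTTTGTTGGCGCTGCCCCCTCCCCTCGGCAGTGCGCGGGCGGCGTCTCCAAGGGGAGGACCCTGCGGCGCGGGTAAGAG
The first bases of the 2 genes are 21 bases apart, and Col4a1 is read from the other strand. No factor was measured at this promoter.

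Macrophage and lymphocyte genes had larger median interactions than the matrix genes, and a chow flox library with neutrophil transcripts contributed to them. Of 20 monocyte and macrophage genes, 18 were positive and 0 negative at an unadjusted p under 0.05, with a median interaction of 2.77. The median was 3.22 without chow flox replicate 4, where 19 passed, and 1.89 without chow flox replicate 3. Csf1r, the receptor that sustains macrophages, had 33.3, 55.8 and 12.1 CPM in chow flox and 7.64, 6.83 and 4.52 CPM in chow KO. It had 22.0 to 27.4 CPM in HFSC flox and 23.0 to 25.7 CPM in HFSC KO, so the genotypes overlapped on HFSC. The interaction was 2.38 ± 0.52 (edgeR adjusted p = 0.0625), and 1.84 without chow flox replicate 3. The complement genes C1qb and C1qc, made by tissue macrophages, had 2.76 ± 0.63 and 2.42 ± 0.55. Cd163, a marker of resident macrophages, had only 0.27.

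MHC class II genes, which present antigen to CD4 T cells, were positive in 7 of 7 cases at an unadjusted p under 0.05, with a median of 1.995. All 7 passed without chow flox replicate 4, with a median of 2.38. H2-Aa had 55.9, 60.3 and 15.4 CPM in chow flox and 11.2, 9.11 and 6.68 CPM in chow KO. On HFSC it had 37.5 to 51.4 CPM in flox and 44.3 to 53.9 CPM in KO. Chow flox replicate 4 was nearer to chow KO than to its own group, and the interaction was 2.40 ± 0.50 (edgeR adjusted p = 0.0625). Lymphocyte genes were few and low: 5 of 9 were positive and 1, the immunoglobulin chain gene Ighm at -2.55, negative at an unadjusted p under 0.05. Their median of 2.80 was 3.19 without chow flox replicate 4, where 5 positive and 1 negative passed, and 1.86 without chow flox replicate 3. Trbc2, a T cell receptor constant gene, had at most 0.668 CPM in any library, and Ms4a1, which marks B cells, had at most 9 reads in any library and was not tested. Of the 8 neutrophil genes only S100a9 was tested, and its interaction of 4.95 ± 3.003 became -2.30 without chow flox replicate 3.

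Interferon response genes were positive in 17 of 18 cases at an unadjusted p under 0.05, with a median of 1.503, or 1.496 without chow flox replicate 3. Leaving out chow flox replicate 4, 18 of 18 passed, with a median of 1.90. Irf7, a transcription factor that amplifies interferon signalling, had 14.2, 16.3 and 3.28 CPM in chow flox, 3.72, 2.48 and 2.11 CPM in chow KO, 4.39 to 9.07 CPM in HFSC flox and 6.29 to 8.78 CPM in HFSC KO. Chow flox replicate 4 lay inside the chow KO range, and the HFSC groups overlapped. The interaction was 2.02 ± 0.63 (edgeR adjusted p = 0.0869). Bst2, the antiviral protein tetherin, had 1.51 ± 0.47 (edgeR adjusted p = 0.0887). Tested cytokine and chemokine genes were positive at an unadjusted p under 0.05 in 2 of 10 cases, which is near the 18.2% of all tested genes. Their median of 1.18 was 1.66 without chow flox replicate 4, where 4 of 13 tested passed, 0.49 without chow flox replicate 3 and 0.51 without HFSC KO replicate 3.

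**Figure D3:**
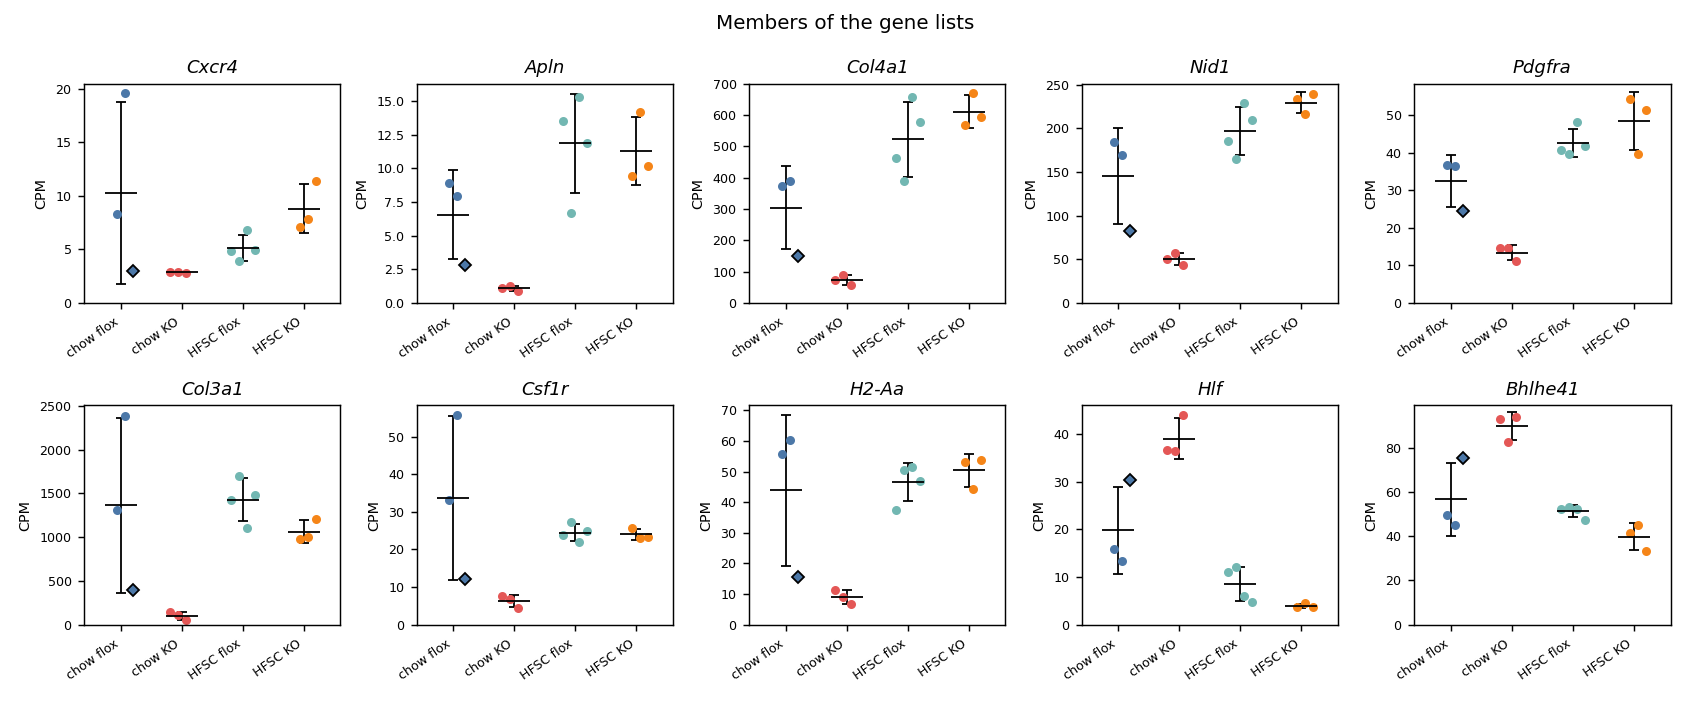
CPM of 10 members of the gene lists in each library (points), with group mean and SD (bars) and the diamond marking chow flox replicate 4. Col3a1 lies at 53.7 to 142 CPM in chow KO and at 973 to 1702 CPM on HFSC, and Hlf at 36.4 to 43.9 CPM in chow KO and 3.69 to 4.46 CPM in HFSC KO.

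Endothelial genes differed in size and showed both kinds of pattern. Of 20 tested, 14 were positive and 0 negative at an unadjusted p under 0.05, with a median interaction of 0.97, and 16 passed without chow flox replicate 4, with a median of 1.18. Sox18, a transcription factor of endothelial and lymphatic development, had 17.3, 21.8 and 8.46 CPM in chow flox and 9.65, 6.87 and 8.53 CPM in chow KO. It had 9.39, 12.6, 11.3 and 10.01 CPM in HFSC flox and 16.7, 29.0 and 22.2 CPM in HFSC KO. Its groups were apart on HFSC and overlapped on chow through chow flox replicate 4, with an interaction of 1.996 ± 0.40 (edgeR adjusted p = 0.0625). Cldn5, the tight junction protein of endothelium, had 2.05, Cdh5, vascular endothelial cadherin, 1.01 and Pecam1 1.02. Kdr and Flt1, the receptors for vascular endothelial growth factor, had -0.08 and -0.03, and Vwf, von Willebrand factor, had -0.07. The list thus ran from -0.08 to 2.05.

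Of 18 angiogenic ligands and receptors, 8 were positive and 1, Fgf2, negative at an unadjusted p under 0.05, with a median of 0.63. Leaving out chow flox replicate 4, 10 positive and 1 negative passed, with a median of 0.84. Apln, the peptide apelin made by sprouting endothelium, had 8.91, 7.99 and 2.78 CPM in chow flox and 1.13, 1.24 and 0.862 CPM in chow KO. It had 6.69 to 15.3 CPM in HFSC flox and 9.45 to 14.2 CPM in HFSC KO. The chow groups were apart and the HFSC groups overlapped, with an interaction of 2.53 ± 0.54 (edgeR adjusted p = 0.0625). Its receptor gene Aplnr had 1.95. Angpt2, a ligand that loosens vessels, had 1.69 ± 0.42 (edgeR adjusted p = 0.0701), whereas Vegfa had -0.06. Of 12 smooth muscle and pericyte genes, 5 were positive and 1, the potassium channel subunit gene Abcc9 at -0.71, negative at an unadjusted p under 0.05, with a median of 0.60. Their median was 0.72 without chow flox replicate 4, where 6 positive and 2 negative passed. Pdgfrb, which marks pericytes, had 1.04 ± 0.35 (edgeR adjusted p = 0.099).

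All 5 tested red blood cell genes were positive at an unadjusted p under 0.05, with a median interaction of 0.96 built from 0.16 on chow and 1.10 on HFSC. Hba-a1, an alpha globin gene, had 17.8, 15.7 and 15.9 CPM in chow flox and 19.0, 14.02 and 22.1 CPM in chow KO. It had 12.1, 16.1, 15.3 and 11.1 CPM in HFSC flox and 27.9, 32.3 and 35.8 CPM in HFSC KO. The HFSC KO libraries were the highest of all and the chow groups overlapped, with an interaction of 1.08 ± 0.24 (edgeR adjusted p = 0.0625). Leaving out chow flox replicate 4, 4 of the 5 passed, with a median of 1.05. Hba-a1 and Hba-a2 are near-identical copies, so their reads cannot be assigned with certainty, and how much blood each sample held was not recorded.

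Of 12 fat cell genes, 8 were positive and 0 negative at an unadjusted p under 0.05, with a median of 1.01 built from -0.50 on chow and 0.61 on HFSC. The list's level on HFSC overlapped between genotypes, at -0.67 to 0.51 in flox and 0.44, 0.23 and 1.10 in KO replicates 2, 3 and 4 (log2, centred on each gene's mean). Pck1, an enzyme of glyceride synthesis in fat, had 19.7, 10.7 and 8.73 CPM in chow flox, 8.39, 4.71 and 6.12 CPM in chow KO, 5.57 to 17.9 CPM in HFSC flox and 41.0, 12.3 and 47.7 CPM in HFSC KO. HFSC KO replicate 3 lay inside the HFSC flox range, and the interaction was 2.53 ± 0.68 (edgeR adjusted p = 0.0747). Adipoq had 1.24 ± 0.48 (edgeR adjusted p = 0.126), with 30.7 CPM in HFSC KO replicate 4 and at most 19.3 CPM in any other library. Ucp1, a brown fat protein gene that was not tested, had 51 reads in HFSC KO replicate 4 and at most 6 elsewhere. The part of adhering fat in these values was not tested. Without chow flox replicate 4, 4 positive members and 1 negative passed, with a median of 1.18.

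On the negative side the lists had smaller medians. With TMM scaling all 13 mitochondrially encoded genes had a negative interaction, 5 of them at an unadjusted p under 0.05 and 0 positive, with a median of -0.73, and 10 passed without chow flox replicate 4, with a median of -1.13. The median was -0.47 with library totals. mt-Co2, a subunit of cytochrome c oxidase, had 3.34, 2.51 and 7.09 CPM in chow flox and 4.06, 6.63 and 7.37 CPM in chow KO. It had 14.4, 5.52, 10.5 and 12.98 CPM in HFSC flox and 5.19, 4.49 and 8.22 CPM in HFSC KO. The groups overlapped on both diets, with an interaction of -1.36 ± 0.57 (edgeR adjusted p = 0.144). Counts of mt-Co2 and of mt-Atp8, at 0.534 to 4.22 CPM, were low, and the treatment of multi-mapping reads was not given. How far they measure mitochondrial transcripts is therefore unknown. Nuclear-encoded respiratory chain genes had a median of -0.01, with 1 negative of 20 at an unadjusted p under 0.05. That median was -0.19 without chow flox replicate 4, where 2 passed as negative, and 0.30 with library totals.

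Fast fibre genes had 0 of 14 members at an unadjusted p under 0.05 and a median of -0.39, yet 8 passed as negative without chow flox replicate 4, with a median of -0.72. The median was -0.21 without chow flox replicate 3 and -0.12 with library totals. Myh4 had 37957, 25232 and 74255 CPM in chow flox and 56172, 75096 and 84328 CPM in chow KO. On HFSC it had 48016 to 70168 CPM in flox and 37789 to 52320 CPM in KO. Chow flox replicate 4 lay inside the chow KO range, and the interaction of -0.94 ± 0.47 (edgeR adjusted p = 0.203) was -1.48 without it (edgeR adjusted p = 0.0052). Slow fibre genes had 1 negative of 11 at an unadjusted p under 0.05, Tpm3 at -0.93 ± 0.27 (edgeR adjusted p = 0.0782), with 452 to 803 CPM in chow flox, 904 to 1073 CPM in chow KO, 93.4 to 123 CPM in HFSC flox and 78.2 to 96.8 CPM in HFSC KO. Their median of -0.46 was -0.52 without chow flox replicate 4, where 1 passed as negative. It was 0.02 without HFSC flox replicate 1, -0.93 without HFSC KO replicate 3 and -0.29 without HFSC KO replicate 4. With library totals the slow fibre median was -0.14, and with the replicate block 0.12. Myh7, the slow myosin, was far lower on HFSC in both genotypes, at 106 to 548 CPM against 2410 to 3417 CPM on chow. Its interaction was -0.90 ± 0.56 (edgeR adjusted p = 0.293), or -0.34 without HFSC flox replicate 1 and -0.18 with the replicate block. The slow fibre list had a median HFSC minus chow difference of -2.60 in flox and -2.70 in KO (log2). The cause of this lower level on HFSC was not tested.

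Metabolic lists held a few genes with larger interactions. Among 24 fatty acid uptake and oxidation genes, 1 was positive and 1 negative at an unadjusted p under 0.05, with a median of -0.29, or -0.00378 with library totals and -0.19 without HFSC flox replicate 4. Angptl4, a secreted inhibitor of lipoprotein lipase, had 7.37, 16.4 and 3.47 CPM in chow flox, 4.98, 3.20 and 3.32 CPM in chow KO, 13.98 to 26.3 CPM in HFSC flox and 32.3 to 34.7 CPM in HFSC KO. Its groups were apart on HFSC, and the interaction was 2.08 ± 0.56 (edgeR adjusted p = 0.0747). It was 1.36 (edgeR adjusted p = 0.181) without chow flox replicate 3, which holds the highest chow value. Lpl, the lipase itself, had 532 to 802 CPM in chow flox, 1102 to 1145 CPM in chow KO, 530 to 681 CPM in HFSC flox and 477 to 761 CPM in HFSC KO, with an interaction of -0.77 ± 0.26 (edgeR adjusted p = 0.1). In this pair the inhibitor was positive and the enzyme negative. Without chow flox replicate 4, 1 member passed as positive and 11 as negative, with a median of -0.50.

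Of 14 genes of glucose uptake and insulin signalling, 3 were positive and 3 negative at an unadjusted p under 0.05. Their median was -0.32, or -0.05 with library totals. The median was -0.62 without chow flox replicate 4, where 2 positive and 5 negative passed, and -0.13 without chow flox replicate 3. Without chow flox replicate 4, 18.8% of all tested genes passed as positive and 16.1% as negative. Tbc1d4, the Akt substrate AS160 that controls glucose transporter traffic, had 52.3, 52.0 and 72.6 CPM in chow flox and 93.5, 106 and 93.8 CPM in chow KO. It had 46.3, 63.7, 60.1 and 58.5 CPM in HFSC flox and 51.1, 44.4 and 38.0 CPM in HFSC KO. The groups were apart on chow and overlapped on HFSC, with an interaction of -1.09 ± 0.22 (edgeR adjusted p = 0.0625). Of 14 genes of branched-chain amino acid breakdown, 3 were negative and 0 positive at an unadjusted p under 0.05, with a median of -0.26 that turned to 0.05 with library totals. It was -0.39 without chow flox replicate 4, where 4 passed as negative, and -0.14 without chow flox replicate 3. Dbt, the E2 core of the branched-chain ketoacid dehydrogenase, crossed, with 30.4, 21.5 and 36.0 CPM in chow flox and 45.4, 46.7 and 44.7 CPM in chow KO. It had 30.4, 34.0, 42.2 and 41.6 CPM in HFSC flox and 29.2, 29.5 and 28.0 CPM in HFSC KO. Its interaction was -1.001 ± 0.23 (edgeR adjusted p = 0.0625), and that of Ppm1k, the phosphatase that activates the same complex, -0.80 ± 0.24 (edgeR adjusted p = 0.0855).

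Among 15 circadian clock genes, 1 was positive and 2 negative at an unadjusted p under 0.05, against 18.2% and 11% of all tested genes. The 2 negative ones, Hlf and Bhlhe41, crossed. Hlf, a clock output factor that binds D-box elements (chromosome 11, 90336536 to 90390895), had 15.9, 13.4 and 30.3 CPM in chow flox and 36.6, 36.4 and 43.9 CPM in chow KO. It had 11.1, 12.1, 5.93 and 4.83 CPM in HFSC flox and 3.69, 4.46 and 3.75 CPM in HFSC KO. KO was above flox on chow and below it on HFSC, by 0.98 and -1.08 on the log2 scale, with an interaction of -2.06 ± 0.48 (edgeR adjusted p = 0.0637). Bhlhe41, the transcriptional repressor DEC2, had 49.7, 45.1 and 75.7 CPM in chow flox and 93.2, 83.0 and 94.0 CPM in chow KO. It had 47.5 to 53.4 CPM in HFSC flox and 33.4 to 45.1 CPM in HFSC KO, with an interaction of -1.03 ± 0.24 (edgeR adjusted p = 0.0625). Per2, a core repressor, was the only positive member at an unadjusted p under 0.05, at 0.77 ± 0.27 (edgeR adjusted p = 0.105), while Dbp and Nr1d2 had 0.06 and -0.03. The list's median of -0.05 was 0.25 with library totals, 0.04 without chow flox replicate 3 and -0.20 without chow flox replicate 4, where 1 positive and 3 negative passed. Over all tested genes, 18.8% passed as positive and 16.1% as negative in that last setting. The labels give no time of day for any sample, and a difference in sampling time between groups was not tested.

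Of 20 genes of dividing cells, 12 were positive and 2 negative at an unadjusted p under 0.05, with a median of 1.58. Leaving out chow flox replicate 4, 12 positive and 2 negative passed, with a median of 1.98. Top2a, a topoisomerase of replicating cells, had 4.63, 6.81 and 0.61 CPM in chow flox, 0.478, 0.36 and 0.215 CPM in chow KO, 3.29 to 8.002 CPM in HFSC flox and 3.11 to 5.89 CPM in HFSC KO. The chow KO libraries were lowest and chow flox replicate 4 next, with an interaction of 3.20 ± 0.91 (edgeR adjusted p = 0.0776). The DNA helicase genes Mcm4 and Mcm7 had 0.00 and 0.15, and Aurka, a mitotic kinase gene, had -1.60. Tendon genes were positive at an unadjusted p under 0.05 in 8 of 9 cases, with a median of 1.91, and 8 passed without chow flox replicate 4, with a median of 2.26. Tnmd, tenomodulin, had 19.8, 12.3 and 4.04 CPM in chow flox, 1.94, 3.40 and 1.21 CPM in chow KO and 11.3 to 29.5 CPM across the HFSC libraries, with an interaction of 2.75 ± 0.71 (edgeR adjusted p = 0.0716). How much tendon each sample held was not recorded.

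Muscle stem cell and regeneration genes depended on single libraries. At an unadjusted p under 0.05, 2 of 12 were positive, near the 18.2% of all tested genes. Their median of 1.01 was -0.18 without HFSC KO replicate 3 and 1.63 without chow KO replicate 1. It was 1.23 without chow flox replicate 4, where 1 positive and 1 negative passed. Myh3, the embryonic myosin re-expressed in regenerating fibres, had 142, 167 and 23.9 CPM in chow flox, 36.6, 17.3 and 15.9 CPM in chow KO, 33.8 to 99.3 CPM in HFSC flox and 23.5, 256 and 49.6 CPM in HFSC KO. The 256 CPM of HFSC KO replicate 3 was the highest of all libraries, and the interaction was 3.25 ± 1.13 (edgeR adjusted p = 0.102), or 1.66 without that library (edgeR adjusted p = 0.266). Schwann cell and myelin genes had 0 of 10 members at an unadjusted p under 0.05 and a median of -0.01, or 0.28 with library totals. Of 3 skin keratinocyte genes, 1, the desmosome gene Dsp, was positive at an unadjusted p under 0.05. Cytosolic ribosomal protein genes had 1 positive of 20 at an unadjusted p under 0.05 and a median of 0.05, or -0.05 without chow flox replicate 4, where 1 positive and 1 negative passed. The glycolysis list had 1 negative of 16 at an unadjusted p under 0.05 and a median of -0.17, which was 0.12 with library totals and 0.01 without chow flox replicate 3. Its median was -0.43 without chow flox replicate 4, and 5 passed as negative. The atrophy list had 2 positive and 2 negative of 14 at an unadjusted p under 0.05 and a median of -0.05, or 0.26 with library totals. It was -0.22 without chow flox replicate 4, where 1 positive and 4 negative passed. The heat shock and immediate early lists both had medians of 0.17, which turned negative, at -0.03 and -0.10, without HFSC KO replicate 3.

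**Figure D4:**
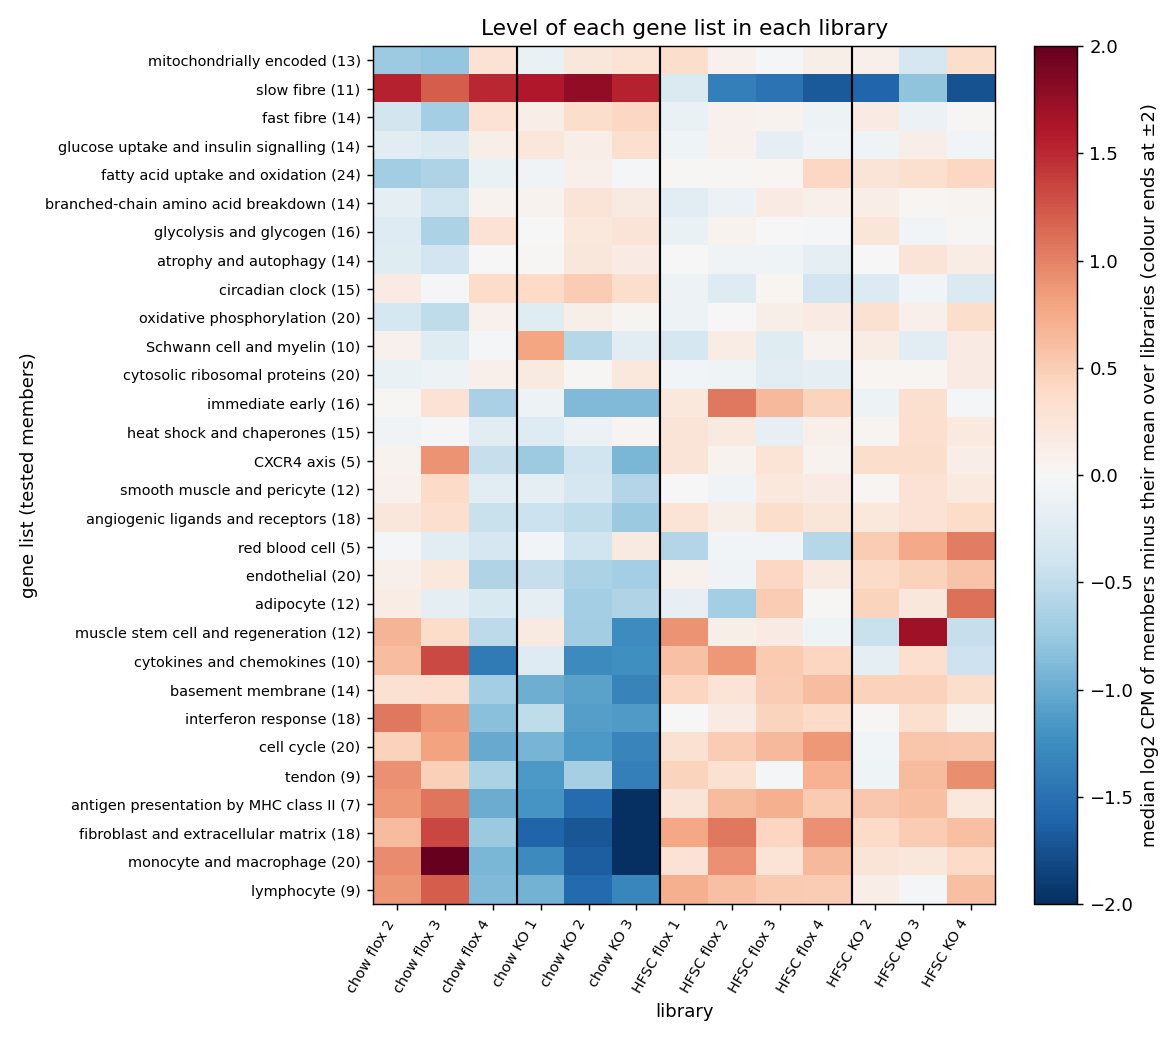
Level of each gene list in each of the 13 libraries, as the median over tested members of log2 CPM minus the member's mean over libraries. The matrix list runs from -2.31 to -1.60 in chow KO, is -0.75 in chow flox replicate 4 and lies between 0.38 and 1.34 in the other 9 libraries.

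**Figure D5:**
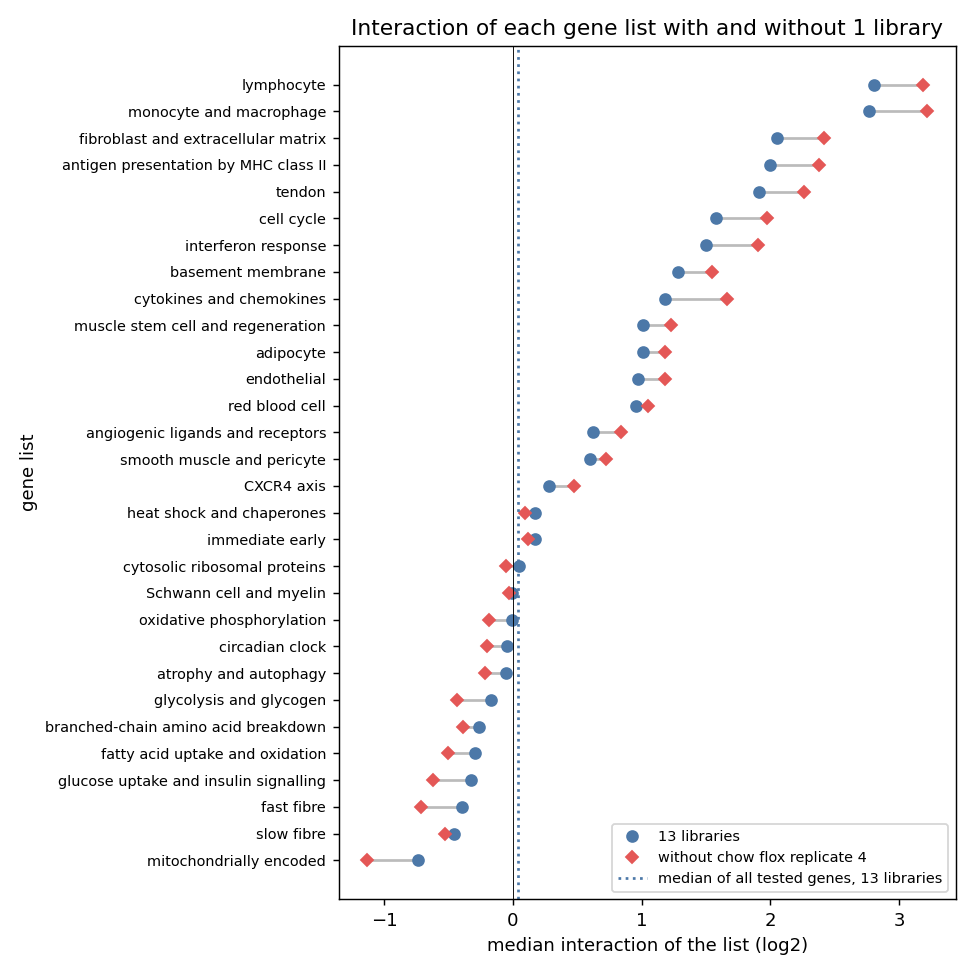
Median interaction of each gene list (log2, horizontal axis) with all 13 libraries (circles) and without chow flox replicate 4 (diamonds), with the median of all tested genes dotted. The macrophage list moves from 2.77 to 3.22, the matrix list from 2.05 to 2.41 and the fast fibre list from -0.39 to -0.72.

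Transcripts at the locus itself were also measured. Nr6a1, a nuclear receptor gene on the minus strand of chromosome 2 (38723370 to 38927688) whose span contains both miRNAs, had 3.84, 3.61 and 5.68 CPM in chow flox and 7.74, 7.47 and 7.07 CPM in chow KO. It had 5.94, 5.02, 4.50 and 7.96 CPM in HFSC flox and 4.19, 6.56 and 6.07 CPM in HFSC KO. The groups were apart on chow and overlapped on HFSC, with an interaction of -0.84 ± 0.33 (edgeR adjusted p = 0.131). Nr6a1os, an antisense RNA on the plus strand that ends just before the miRNAs (38823257 to 38852370), had 0.544, 0.935 and 1.07 CPM in chow flox, 2.52, 2.52 and 1.42 CPM in chow KO, 0.709 to 1.42 CPM in HFSC flox and 0.656 to 1.002 CPM in HFSC KO. Its interaction was -1.66 ± 0.49 (edgeR adjusted p = 0.0817). The counting's strand setting is unknown here, so reads of the 2 genes cannot be told apart.

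The site that pairs with the shared 5p seed was then looked up in 3′ UTRs, taking the longest one annotated for a gene. The 8-base site TGAATGTA, on the message strand, occurred in 153 of 1553 negative genes with a 3′ UTR (9.85%), in 145 of 2781 positive genes (5.21%) and in 878 of 13938 tested genes (6.30%). The sets also differed in 3′ UTR length, with medians of 1919 bases for negative, 1252 for positive and 1357 for all tested genes. They differed in level too, with median CPM of 24.9, 6.33 and 9.14. A longer UTR holds more sites of any kind, and the part of length and level in the share of sites was not tested. No seed match is a measured binding site.

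Sites of 4 genes described above are shown with 7 bases on either side, 5′ to 3′ on the message strand, with the 8-base match in capitals (GRCm38).
Hlf: aaaaaaaTGAATGTAaaagaca
Tbc1d4: aaaaagaTGAATGTAtttttcc
Nr6a1: acagagtTGAATGTAtggcctt
Cyp1b1: tgttttgTGAATGTAggggtca
They lie at chr11:90339357-90339378, chr14:101444104-101444125, chr2:38727633-38727654 and chr17:79707694-79707715, all on the minus strand. Each of these 3′ UTRs held 1 such site. Hlf, Tbc1d4 and Nr6a1 had negative interactions and Cyp1b1 a positive one. Cd4, Fbxo30 and Grb10, named by the rule but not described above, also held 1 site each. Their interactions were positive, at 3.40, 0.54 and 0.44, so genes with the site lay on both sides.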

How the data were processed

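Skeletal muscle RNA was sequenced in 13 samples. The values are raw read counts for Ensembl genes that the authors deposited, made, per the submitters' processing notes, with STAR 2.5.2b, Trimmomatic 0.36 and featureCounts (Subread 1.5.2) on GRCm38. RNA was selected for polyA per the labels' protocols. The annotation release, strand setting and treatment of multi-mapping reads were not given in the sources used here, so overlapping genes and near-identical copies can share reads. All 13 columns were used. Total counts ran from 20830943 to 45710227 per library, where 3 counts, the limit a count of 0 allows, equal 0.0633 to 0.152 CPM (counting error only). Of 49315 gene identifiers, 259 had no symbol in GENCODE M21. Replicates were not duplicates, with chi-square per degree of freedom of at least 10.5 over genes with 20 counts in a pair.

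The test was that of edgeR 4.0.16 under R 4.3.3 (TMM factors, filterByExpr, robust quasi-likelihood F test, 4 group means, no covariate). The interaction was (HFSC KO minus HFSC flox) minus (chow KO minus chow flox), adjusted by Benjamini-Hochberg over 16496 genes with a threshold of 0.05. CPM uses TMM library sizes, and SE is the log2 difference over the square root of F. Alternatives were RLE size factors, library totals, DESeq2 1.42.0, limma 3.58.1 voom with sample quality weights, no filter, no robust estimation, the replicate number as a block and leaving out each library.

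Genes were named by rule as the 5 per direction with the smallest p, at least 1 CPM in a group and no predicted or clone name, since 0 passed, with the CXCR4 axis, the miR-181 locus and up to 3 members of each of the other lists. Sema3g, Hey1, Cyp1b1, Cpeb3 and Adipoq, and list members given with a log2 value alone, were chosen after their values were seen. One gene that the rule names is not reported here. The 33 gene lists and the genes named were chosen with earlier results of these data known. A planned promoter motif comparison is void, because fewer than 80% of the genes of each set had a promoter window.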

Additional observations from a re-analysis of the deposited data

Results flagged for a closer look

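Among the 105 genes named by rule, 13 had KO and flox libraries that did not overlap on either diet and differed in opposite directions. Over all 16496 tested genes, 0.94% did so with KO lower on chow and 0.758% with KO higher on chow. Most named genes were chosen by the smallest interaction p on these libraries, so a larger share among them follows from the choice. The difference between diets was tested by the interaction, and none passed an adjusted p of 0.05 in edgeR with all 13 libraries. The log2 interaction was 1.60 for Sox17, 1.57 for Prkd1, 1.48 for Scara5, 1.80 for Sult5a1 and 2.63 for Cxcr4. It was -1.86 for Zfp454, -1.62 for Vwa3b, -1.35 for Srebf1, -1.03 for Fgf2, -1.17 for Lppos, -1.03 for Bhlhe41, -1.001 for Dbt and -2.06 for Hlf.

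In the HFSC flox group, the only group of 4, a library lay far from the other 3 in 6 of 105 named genes by Dixon's test, which chance gives in about 1 gene of 20. Replicate 1 was high for the developmental myosins Myh3 at 99.3 CPM and Myh8 at 208 CPM. Replicate 2 was high for the macrophage gene C1qc at 22.7 CPM and for Myh4 at 70168 CPM. Replicate 3 was low for the chaperone gene Hsph1 at 46.4 CPM, and replicate 4 was high for Hadhb, an enzyme of fatty acid oxidation, at 494 CPM.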

How the results depend on the processing

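The count of genes past an adjusted p of 0.05 was 0 and remained 0 with RLE factors, library totals, no robust estimation and the replicate block. It was 161 with no low-count filter, 7098 with voom, 2025 with DESeq2, and 0 to 5928 when 1 library was left out. The count at an unadjusted p under 0.05 was 8436 with voom and 3138 to 7670 when 1 library was left out. The low end came without chow flox replicate 3 and the high end without chow flox replicate 4. The genes with chow KO farthest and lowest numbered 2314, and 3543 with library totals, and those with chow KO farthest and highest among the negative ones 1227, and 398 with library totals. There were 280 crossing genes, 278 with RLE factors and 230 with library totals. The labels do not say whether replicate numbers pair the samples. Only 1 of 16 same-number pairs correlated over 0.1 in their deviations from group means (r from -0.34 to 0.11). Deviations within a group of 3 or 4 depend on each other, so this check cannot exclude a pairing. With the replicate block 3862 genes lay under the unadjusted limit, at a smallest edgeR adjusted p of 0.172. Of 105 named genes, 63 passed in DESeq2 and 90 without chow flox replicate 4. Over all tested genes, 2025 of 14245 and 5928 of 16972 passed. Most named genes were chosen by p on the same libraries, so their larger shares follow from the choice.

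Values that turned sign were all of genes far from the threshold in edgeR with all 13 libraries. Of these, Rpl4 passed as negative without chow flox replicate 4, at -0.44 (edgeR adjusted p = 0.0463). With voom they were -0.0214 for S100a9, -0.0289 for Mif and -0.0861 for Cxcl12. With library totals they were 0.0470 for Rpl4, 0.095 for Ndufa4 and 0.29 for Sbsn, and with the replicate block 0.15 for Sbsn. Leaving out 1 library gave -2.30 to 9.25 for S100a9, -0.63 to 0.11 for Mbp, -0.21 to 0.84 for Egr2, -0.30 to 0.47 for Cxcl12 and -0.35 to 0.12 for Sbsn. The cause was not tested.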

Other observations

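A few other genes with large interactions were picked out after their values were seen. Cdh4, a cadherin known from retina and nerve, had 3.22, 2.86 and 8.58 CPM in chow flox and 29.3, 16.5 and 32.2 CPM in chow KO, against 3.65 to 6.82 CPM in HFSC flox and 2.58 to 6.82 CPM in HFSC KO. The chow KO libraries were the highest of all 13, and its interaction was -2.74 ± 0.62 (edgeR adjusted p = 0.0625). Eln, the elastic fibre protein elastin, had 109, 91.2 and 40.9 CPM in chow flox and 23.5, 24.9 and 23.1 CPM in chow KO, against 90.6 to 114 CPM in HFSC flox and 104 to 142 CPM in HFSC KO. Its interaction was 2.13 ± 0.36 (edgeR adjusted p = 0.0625).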
